A study of Mus musculus with 6 samples.

Results

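The Prader-Willi/Angelman imprinted cluster of the mouse was followed here through its 9 genes *Snrpn*, *Snurf*, *Snhg14*, *Ndn*, *Magel2*, *Mkrn3*, *Peg12*, *Ube3a* and *Atp10a*. The genes were chosen by name, as the rows of the count table whose identifiers carry these symbols, and all 9 were found among the 49671 genes of the table. The cluster was measured by RNA-seq in 6 neurosphere libraries of neural stem cells (NSCs) grown from the subventricular zone of adult mice, 3 labelled Tet3-Gfap cre and 3 labelled Tet3-Gfap control. In the cre animals a Cre recombinase driven by the *Gfap* promoter removes a loxP-flanked exon of *Tet3*, which encodes a dioxygenase that oxidizes methylated cytosine; the control animals carry the loxP alleles without Cre. Deletion is therefore limited to cells in which the *Gfap* promoter has been active. According to the methods each culture was started from a pair of animals, and culture experiments are described as independently repeated, although this is not stated of these libraries in particular. The p-values below refer to the spread between libraries, part of which may be technical. The study asked which genes, imprinted ones among them, change in NSCs without TET3.

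In this cluster the parent of origin decides which copy is used. *Snrpn*, *Snurf*, *Snhg14*, *Ndn*, *Magel2*, *Mkrn3* and *Peg12* are transcribed from the paternal chromosome, under an imprinting centre at the *Snrpn* promoter that is methylated on the maternal copy. *Ube3a* is silenced on the paternal chromosome in neurons, where *Snhg14* runs through it as an antisense transcript, and is used from both copies in most other cells. Loss of the paternal genes causes Prader-Willi syndrome in humans, and loss of maternal *UBE3A* causes Angelman syndrome. The counts do not separate the parental copies.

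*Tet3* had 61.3, 60.6 and 116 CPM (read counts scaled to the TMM-adjusted size of each library) in the libraries labelled cre 1, 2 and 3, against 114, 136 and 60.3 CPM in those labelled control 1, 2 and 3. Its level in the libraries labelled cre 3 and control 3 thus went against their labels. *Gfap*, an astrocyte intermediate filament, did the same, with 3.84, 3.52 and 0.280 CPM in cre 1, 2 and 3 and 0.503, 0.327 and 6.62 CPM in control 1, 2 and 3, although the *Gfap*-cre transgene is described as holding *Gfap* exons, whose reads cannot be told apart from those of the gene. The counts cover the whole *Tet3* gene and not the deleted exon alone. Groups were kept as labelled. Each comparison is given for all 6 libraries and for the 4 that remain without the libraries labelled control 3 and cre 3; these 4 were chosen by the level of *Tet3*, with *Gfap* already seen, so the values of both genes among them are a description and no test. By the labels 0 of 16916 genes passed an adjusted p of 0.05 in edgeR's quasi-likelihood test, with 846 (5%) at an unadjusted p under 0.05 and 70 (0.414%) called by DESeq2. Without the libraries labelled control 3 and cre 3, 78 of 17003 passed, 36 of them higher in cre (0.212%) and 42 lower (0.247%), and DESeq2 called 478 (3.05%). Total counts ran from 29660398 to 35405326 per library. All 12 neural stem cell markers averaged at least 1 CPM, and the microglia markers summed to between 0.311 and 1.497 CPM in cre and between 0.207 and 0.743 CPM in control libraries. All 8 astrocyte markers, 7 of 10 neuroblast and neuron markers and 5 of 8 oligodendrocyte lineage markers also averaged at least 1 CPM. This threshold therefore does not single out stem cells. *Xist* stood at 519 CPM in the library labelled control 2 and between 0 and 2.71 CPM in the others.

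The genes lie on chromosome 7 of GRCm38 between 58656166 and 62464510. RefSeq gives promoter windows of 300 bases for them, reaching from 250 bases before to 50 bases after a start site, and matched all 9 by symbol. Of the 10 distinct windows of the cluster, 5 held the palindrome CGCATGCG, which reads the same on both strands and forms the core of the sequence recognized by the nuclear respiratory factor NRF1. Of all 32817 windows searched in the same way, 1.86% held it. The upstream *Snrpn* windows among the 5 resemble one another at 85.0 to 88.7% identity. These upstream windows are therefore not separate occurrences, and the share of the 5 was not tested against that of all windows. The window of the imprinting centre, shared by *Snrpn* and *Snurf*, and that of *Ndn*, the member with the widest range of levels, are shown first, in GRCm38.p6 and 5′ to 3′, with the palindrome in capitals.
Snrpn and Snurf (chr7:60005150-60005449, minus strand): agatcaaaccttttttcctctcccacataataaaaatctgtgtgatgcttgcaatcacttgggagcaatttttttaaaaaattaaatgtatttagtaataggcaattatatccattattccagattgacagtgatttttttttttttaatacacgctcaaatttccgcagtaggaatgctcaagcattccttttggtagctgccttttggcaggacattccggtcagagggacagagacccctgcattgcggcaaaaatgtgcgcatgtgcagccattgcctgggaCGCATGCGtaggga
Ndn (chr7:62348027-62348326, plus strand): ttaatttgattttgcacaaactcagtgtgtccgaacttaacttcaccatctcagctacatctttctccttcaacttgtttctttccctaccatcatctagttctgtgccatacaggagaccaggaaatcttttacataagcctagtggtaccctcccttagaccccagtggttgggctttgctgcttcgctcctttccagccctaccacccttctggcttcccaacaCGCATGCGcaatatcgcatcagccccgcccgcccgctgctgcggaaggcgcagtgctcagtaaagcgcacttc

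In the *Ndn* window the palindrome began 23 bases before the start site, and in the *Snrpn* window it began 36 bases after it. RefSeq places 3 further *Snrpn* windows upstream, at 85.0 to 88.7% identity with one another and at 60.1 to 60.8% with the window above, the farthest of which is also the window of *Snhg14*. The stretches of 60 bases around their palindromes are set below each other to show how closely these upstream copies resemble one another.
Snrpn, nearest upstream (chr7:60048016-60048075, minus strand): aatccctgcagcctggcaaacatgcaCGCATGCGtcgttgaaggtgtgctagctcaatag
Snrpn, next upstream (chr7:60140270-60140329, minus strand): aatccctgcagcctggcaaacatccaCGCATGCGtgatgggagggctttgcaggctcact
Snrpn and Snhg14, farthest upstream (chr7:60450207-60450266, minus strand): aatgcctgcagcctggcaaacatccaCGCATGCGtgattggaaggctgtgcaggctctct
The windows of *Magel2*, *Mkrn3*, *Peg12*, *Ube3a* and *Atp10a* did not hold these letters. The *Ube3a* window held 29 CpG dinucleotides and the *Atp10a* window 20, *Mkrn3* 15, *Peg12* 12, *Ndn* 11 and *Magel2* 10, with 7 in the *Snrpn* window and 2 to 4 in its upstream copies; the median of all windows was 7.

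*Snrpn* (ENSMUSG00000102252) encodes SmN, the neural form of a core protein of the spliceosomal ribonucleoproteins. It had 42.6, 46.8 and 36.0 CPM in the libraries labelled cre 1, 2 and 3, against 24.8, 26.3 and 48.6 CPM in those labelled control 1, 2 and 3. The groups overlapped, because the library labelled control 3 was the highest of the 6. By the labels the log2 fold change was 0.33 (SE 0.254, adjusted p = 1 in edgeR), with 0.16 without the library labelled control 1 and 0.71 without that labelled control 3, and 0 of the 7 genes of the cluster that passed the filter on low counts were called (percent called over all genes, 0). *Snurf* and *Magel2* did not pass that filter. Among the 4 libraries *Snrpn* was 0.81 higher in cre on the log2 scale (SE 0.0927, adjusted p = 0.0288 in edgeR, 2.12e-07 in DESeq2). It was the only one of the 7 genes of the cluster called by edgeR there, where 0.459% of all genes were called, and the only call was lost without the library labelled control 1, at 0.77 with an adjusted p of 0.0756. The study singled out *Snrpn* from these same libraries, so the call is not independent evidence of its direction. Apart from the libraries, the study reported higher *Snrpn* in cre neurospheres by qPCR, and a decrease when TET3 was overexpressed in cre cells. A catalytically inactive TET3 gave a comparable decrease. The study also reported binding of TET3 at the *Snrpn* promoter, preferentially on the paternal copy. Methylation and hydroxymethylation of the *Snrpn* imprinting centre were reported as unchanged in cre neurospheres. Of the 7 astrocyte markers other than *Gfap* none passed in edgeR in the 4 libraries. The glycolytic enzyme *Aldoc* was 0.65 higher there (adjusted p = 0.0599 in edgeR, 7.95e-07 in DESeq2), with 334, 392 and 333 CPM in cre and 221, 240 and 471 CPM in control 1, 2 and 3, whereas *Aldh1l1*, a folate enzyme, had a log2 fold change of -0.99 (adjusted p = 0.43 in edgeR). The part of astrocyte-like cells in the level of *Snrpn* was not tested.

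SmN replaces SmB, the product of *Snrpb*, in the Sm ring of neural cells. Per kilobase of exon, *Snrpn* made up 18.3, 18.7 and 15.1% of the summed *Snrpn* and *Snrpb* level in cre 1, 2 and 3, against 10.4, 11.1 and 20.5% in control 1, 2 and 3. Other genes overlap 34.1% of the exon bases of *Snrpn* and 0% of those of *Snrpb*. The share of *Snrpn* may therefore be understated if shared reads were dropped. *Snrpb* itself varied little, with 174, 187 and 185 CPM in the cre libraries and 195, 192 and 173 CPM in the control libraries. None of the 7 Sm core genes outside the cluster was called in either comparison. Their log2 fold changes lay between -0.11 and 0.20 by the labels, with a median of -0.05 beside -0.005 for all genes.

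*Snurf* (ENSMUSG00000102627) encodes a small protein from the first exons of the same transcript as *Snrpn*. It had 0 counts in all 6 libraries. All 216 of its exon bases also belong to *Snrpn* or to *Gm38393*, an overlapping gene annotated on the same strand, and 100% of the 50-base stretches of its transcripts occur in transcripts of other genes. Reads of *Snurf* therefore could not have been assigned to it alone under a rule that drops shared reads, and the 0 does not show that the transcript was missing. Of the stretches of *Snrpn*, 26.5% occur in other genes' transcripts, so part of its reads may be missing as well.

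*Gm38393*, which spans *Snurf* and the part of *Snrpn* downstream of their shared start, had 7.37, 4.44 and 6.25 CPM in cre 1, 2 and 3 and 3.11, 4.72 and 10.5 CPM in control 1, 2 and 3. The library labelled control 3 was again the highest and the groups overlapped, also in the 4 libraries, where the log2 fold change was 0.59 (SE 0.312, adjusted p = 0.569 in edgeR). Adding *Gm38393* to *Snrpn* gave 50.01, 51.3 and 42.3 CPM in the cre libraries and 27.9, 31.0 and 59.2 CPM in the control libraries, in an order in which control 3 was highest and control 1 lowest.

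**Figure D1:**
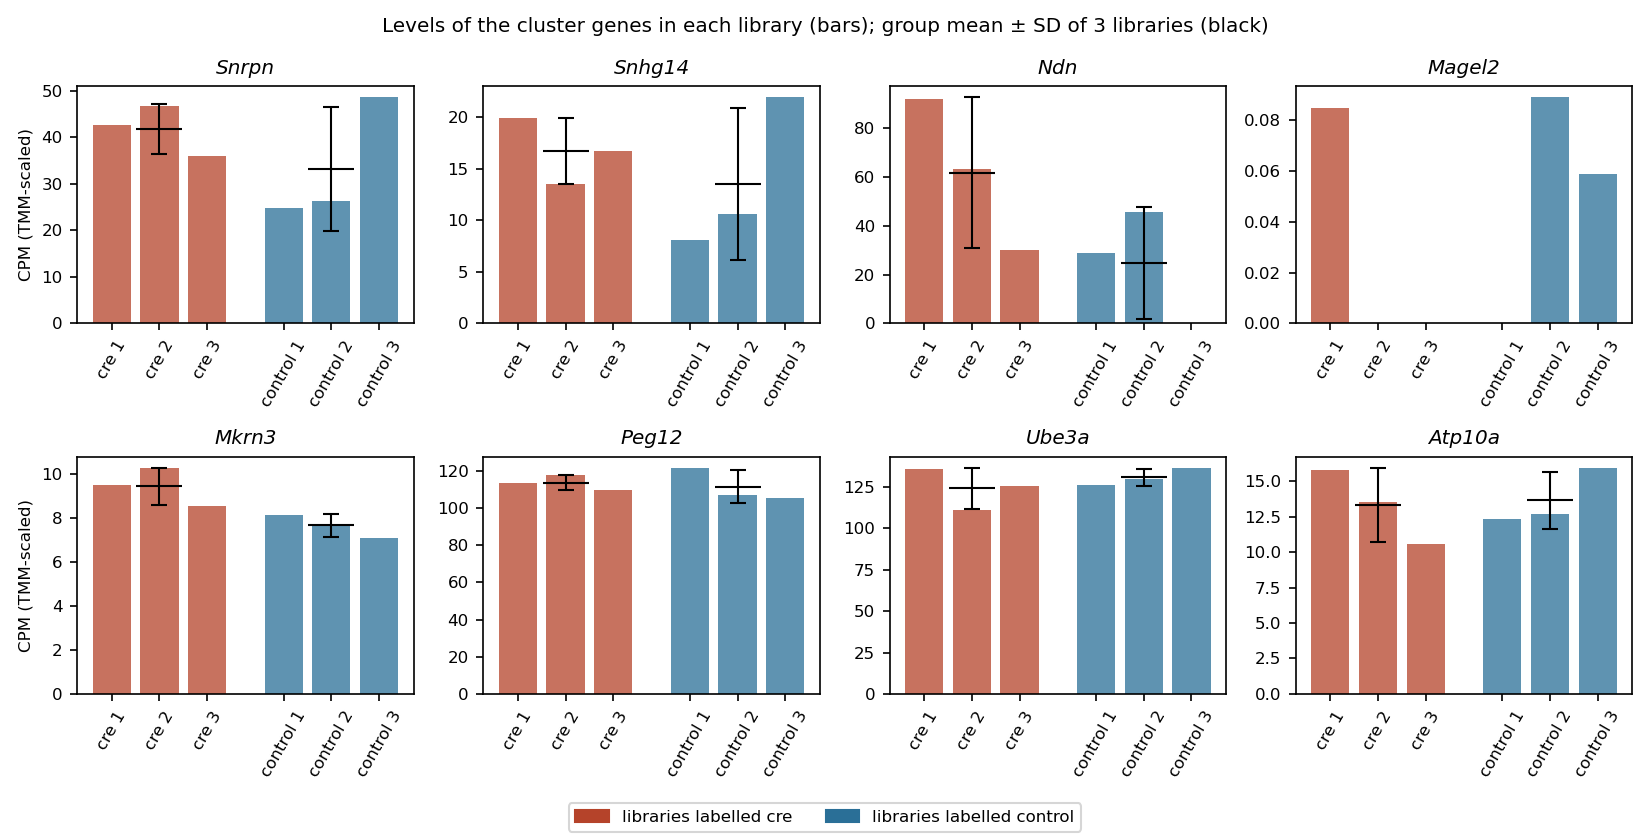
CPM on TMM-scaled library sizes (y axes from 0, each with its own range) of 8 cluster genes in the 6 libraries, with the mean and SD of the 3 libraries of a group in black; *Magel2*, with at most 3 counts in a library, has no mean drawn, and *Snurf*, with 0 counts, is not shown. *Ndn* reaches 92.0 CPM in the library labelled cre 1 and stands at 0.118 CPM in the library labelled control 3, while *Peg12* and *Ube3a* stay level across all 6 libraries.

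*Snhg14* (ENSMUSG00000100826) is the long RNA that follows *Snrpn*, hosts the SNORD115 and SNORD116 snoRNAs and in neurons runs on as the antisense of *Ube3a*. It had 20.0, 13.5 and 16.7 CPM in cre 1, 2 and 3, against 8.07, 10.6 and 21.9 CPM in control 1, 2 and 3. As for *Snrpn*, control 3 was the highest and control 1 the lowest library. The log2 fold change was 0.31 by the labels (SE 0.349, adjusted p = 1 in edgeR), with 0.04 without the library labelled control 1 and 0.84 without that labelled control 3. For the 4 libraries it was 0.84 (SE 0.22, adjusted p = 0.192 in edgeR and 0.0269 in DESeq2), so the call depended on the tool. *Snhg14* had 2.71, 3.05 and 2.68 times the CPM of *Gm38393* in the cre libraries and 2.60, 2.24 and 2.09 times in the control libraries. In the same libraries *Snrpn* had 2.14, 3.46 and 2.15 times the CPM of *Snhg14* in cre and 3.07, 2.48 and 2.22 times in control.

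Of the 279 annotated genes between the outermost members, 210 were snoRNAs. Only 4 of these had any count, 4 counts in all, in libraries made from polyadenylated RNA. The level of *Snhg14* thus counts its exons and not the snoRNAs. Of the 69 other genes 33 had 0 counts in all libraries and 15 averaged at least 1 CPM, 7 of them members of the cluster.

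**Figure D2:**
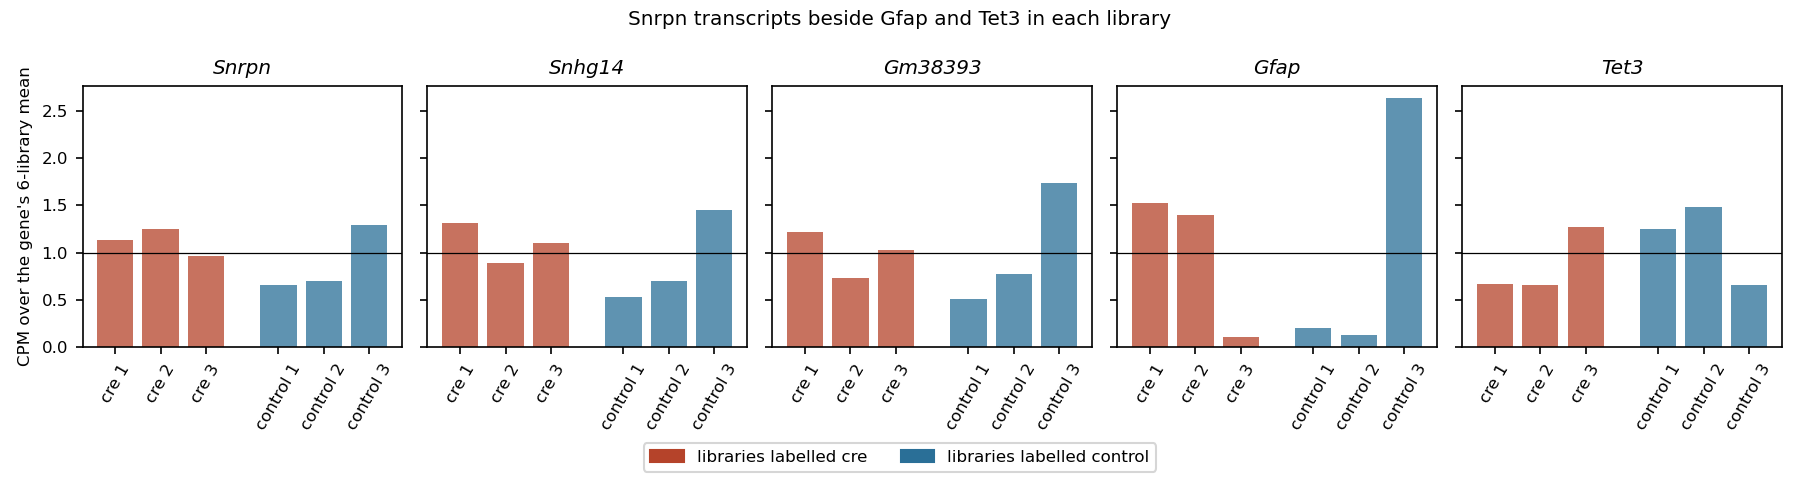
CPM of *Snrpn*, *Snhg14*, *Gm38393*, *Gfap* and *Tet3* in each library (bars), divided by the mean of the gene over the 6 libraries (line at 1). In the library labelled control 3 *Snrpn*, *Snhg14*, *Gm38393* and *Gfap* are at their highest and *Tet3* at its lowest; in the library labelled cre 3 *Tet3* is above its mean and *Gfap* at its lowest.

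*Ndn* (ENSMUSG00000033585) encodes necdin, a MAGE protein that binds E2F1 and p53 and restrains the division of neural progenitors. It had 92.0, 63.3 and 30.2 CPM in the libraries labelled cre 1, 2 and 3, from 3256, 1856 and 973 counts. In those labelled control 1, 2 and 3 it had 28.8, 45.7 and 0.118 CPM, from 917, 1540 and 4 counts. The 4 counts of the library labelled control 3 allow between 0.0322 and 0.303 CPM (exact Poisson interval at 95%, for counting error only), and the lowest of the other 5 libraries was 244 times higher. By the labels the log2 fold change was 1.31 (SE 1.08, adjusted p = 1 in edgeR); it was 0.73 without the library labelled control 3 (adjusted p = 0.636 in edgeR) and 2.10 without that labelled control 2. In the 4 libraries it was 1.06 (SE 0.243), with an adjusted p of 0.153 in edgeR and 0.228 in DESeq2.

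The near absence of *Ndn* in the library labelled control 3 was not seen for *Mkrn3* and *Peg12*, and could not be judged for *Magel2*. *Magel2* (ENSMUSG00000056972), the next gene and a subunit of a ubiquitin ligase that acts on endosomal WASH, had 3, 0 and 0 counts in the cre libraries and 0, 3 and 2 counts in the control libraries, at or below the 3 counts taken as the floor, which amount to between 0.0848 and 0.102 CPM. It was at this floor in all 6 libraries and no difference could be seen at this depth. *Mkrn3* (ENSMUSG00000070527), a ubiquitin ligase known for its brake on the onset of puberty, had 9.49, 10.3 and 8.58 CPM in cre 1, 2 and 3 and 8.17, 7.72 and 7.12 CPM in control 1, 2 and 3. *Peg12* (ENSMUSG00000070526), also known as *Frat3*, a rodent gene related to the FRAT inhibitors of GSK3, had 113, 118 and 110 CPM in the cre libraries and 122, 107 and 105 CPM in the control libraries.

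*Ndn*, *Magel2*, *Mkrn3* and *Peg12* each consist of a single exon with no annotated overlap, and 0% of their 50-base stretches occur in other genes' transcripts, so no stretch of theirs is shared with another gene. *Mkrn3* was the one member whose groups did not overlap by the labels, and was higher in every cre library, as were 4.81% of all genes, with 4.66% lower in every cre library and 9.47% in either direction. Its log2 fold change was 0.30 (SE 0.122), with an adjusted p of 0.974 in edgeR, and it was 0.31 in the 4 libraries (adjusted p = 0.483 in edgeR). *Peg12* had a log2 fold change of 0.03 (SE 0.075) by the labels and of 0.01 (SE 0.0883) in the 4 libraries, with adjusted p of 1 and 0.979 in edgeR. Its sign turned without control 3 by the labels and without cre 2 or control 2 in the 4 libraries.

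Across the whole table, genes that were low in a single library were sought after the values of *Ndn* had been seen. Only 2 genes had under 1 CPM in one library and at least 20 CPM in the other 5, *Ndn* and *Eif2s3y*, a translation initiation factor gene on the Y chromosome, both in the library labelled control 3. For each of the other 5 libraries there were 0 such genes, among 8482 genes with a median of at least 20 CPM. *Eif2s3y* had 106, 53.9 and 41.6 CPM in cre 1, 2 and 3 and 22.1, 29.8 and 0.738 CPM in control 1, 2 and 3. *Kdm5d*, a Y-linked histone demethylase, had 78.0, 45.0 and 35.9 CPM in the cre libraries and 41.7, 18.8 and 0.709 CPM in the control libraries.

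The other Y-linked genes listed, *Uty* and *Ddx3y*, were not low in that library. *Uty* had 46.8, 26.6 and 27.4 CPM in cre 1, 2 and 3 and 31.2, 16.3 and 28.9 CPM in control 1, 2 and 3, and *Ddx3y* had 89.7, 42.4 and 44.4 CPM in cre and 53.9, 23.4 and 56.6 CPM in control. The library labelled cre 1 was the highest for *Ndn* and for all 4 Y-linked genes. The profile of *Eif2s3y* over the 6 libraries lay nearest to that of *Ndn* among the 14453 genes that averaged 1 CPM or more, at a root mean square distance of 0.45 between centred log2(CPM + 1) values, followed by *Kdm5d* at 0.64 and by the gene with the identifier ENSMUSG00000094114 at 1.14. The last had 13.0, 12.2 and 1.90 CPM in the cre libraries and 6.09, 15.9 and 0.295 CPM in the control libraries. The low value in the library labelled control 3 weighs most in the profile of *Ndn*. The nearness of *Eif2s3y* and *Kdm5d* therefore largely restates their low values in that library and is no separate evidence. These distances describe 6 libraries that also share their depth and preparation.

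**Figure D3:**
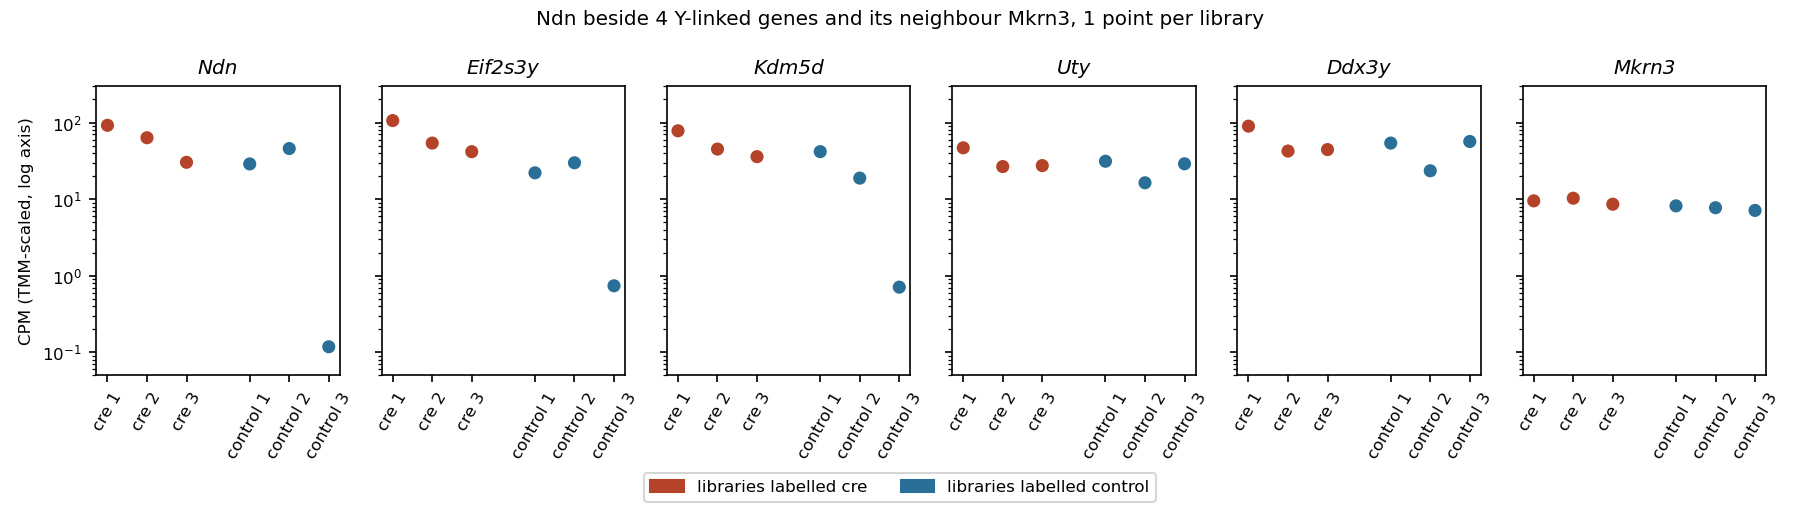
CPM (log axis) of *Ndn*, the Y-linked *Eif2s3y*, *Kdm5d*, *Uty* and *Ddx3y*, and *Mkrn3*, one point per library. In the library labelled control 3 *Ndn*, *Eif2s3y* and *Kdm5d* fall under 1 CPM, while *Uty*, *Ddx3y* and *Mkrn3* stay at 28.9, 56.6 and 7.12 CPM.

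*Ndn* is also transcribed in mesenchymal cells, and the collagen and matrix genes of pericytes and fibroblasts stood out in the library with the most *Ndn*. *Col3a1* had 9.21, 0.205 and 0.311 CPM in cre 1, 2 and 3 and 0.0942, 0.238 and 0.354 CPM in control 1, 2 and 3. *Acta2*, of the same list, was instead highest in cre 3, at 5.56 CPM against 2.23 CPM in cre 1. Of the 8 markers of that list 3 averaged at least 1 CPM. Together the 8 summed to 28.8, 1.47 and 6.56 CPM in cre 1, 2 and 3 and to between 2.39 and 4.28 CPM in control libraries. The highest sum was in cre 1 and the lowest in cre 2, where *Ndn* stood at 63.3 CPM. In the library labelled control 3 the markers summed to 3.25 CPM, within the range of the others. The part of such cells in the *Ndn* levels was not tested. Without the library labelled cre 1 the log2 fold change of *Ndn* was 0.91 by the labels and 0.76 in the 4 libraries, with adjusted p of 1 and 0.277 in edgeR. In these bulk libraries fewer cells of a type and less RNA per cell cannot be told apart.

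*Ube3a* (ENSMUSG00000025326) encodes the E3 ubiquitin ligase lost in Angelman syndrome. It had 136, 111 and 125 CPM in the cre libraries and 126, 130 and 137 CPM in the control libraries. The groups overlapped, and the log2 fold change was -0.08 (SE 0.0839) by the labels and -0.05 (SE 0.107) in the 4 libraries, with adjusted p of 1 and 0.932 in edgeR. *Ube3a* was level while its antisense partner *Snhg14* varied between 8.07 and 21.9 CPM. Of its exon bases 27.3% lie under exons of other genes, all on the opposite strand; the library kit keeps the strand, but the strand setting of the counting is not stated.

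*Atp10a* (ENSMUSG00000025324), a phospholipid flippase gene at the end of the cluster whose imprinting in the mouse varies with tissue and strain, had 15.8, 13.6 and 10.6 CPM in cre 1, 2 and 3 and 12.3, 12.7 and 16.0 CPM in control 1, 2 and 3. The library labelled cre 3 was the lowest and that labelled control 3 the highest of the 6. The log2 fold change was -0.04 (SE 0.17) by the labels and 0.23 (SE 0.128) in the 4 libraries, with adjusted p of 1 and 0.602 in edgeR, so its sign depended on these libraries. In the 4 libraries 5 of the 7 tested members, *Snrpn*, *Snhg14*, *Ndn*, *Mkrn3* and *Atp10a*, had higher values in both cre libraries than in both control libraries, where 20.4% of all genes did so, 20.2% were lower in both and 40.6% did not overlap in either direction. The median log2 fold change of the 7 was 0.31 there and 0.30 by the labels, beside -0.001 and -0.005 for all genes tested. Of the 5, edgeR called only *Snrpn*, and *Snhg14* follows *Snrpn* on the chromosome, so the members are not independent of each other. The 7 were not tested as a set.

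**Figure D4:**
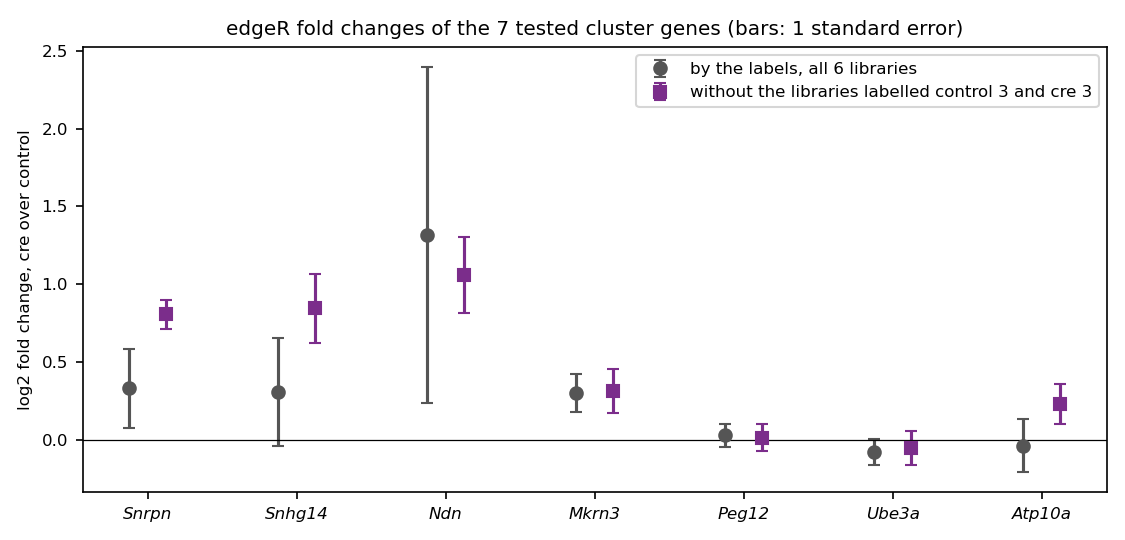
Log2 fold change, cre over control, from edgeR (y axis) of the 7 tested cluster genes, with 1 standard error, for all 6 libraries by the labels (grey circles) and for the 4 libraries without control 3 and cre 3 (purple squares). *Snrpn* and *Snhg14* stand at 0.33 and 0.31 by the labels and at 0.81 and 0.84 in the 4 libraries, the error of *Ndn* is 1.08 by the labels and 0.243 in the 4 libraries, and *Peg12* and *Ube3a* stay near 0.

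Per kilobase of exon, a rough scale for comparing genes, *Peg12* was the highest member, at 40.0 to 46.1 CPM per kb over the 6 libraries. The length used joins the exons of all annotated transcripts, 20626 bases for *Ube3a* and 26093 for *Snhg14*. Genes with several transcripts may therefore be placed too low against single-exon genes. Reads of *Snrpn* and *Ube3a* may also be missing, since 26.5% and 24.8% of their 50-base stretches occur in other genes' transcripts. *Snrpn* followed with 11.5 to 22.5 CPM per kb. *Ndn* ranged from 0.0320 to 24.9 CPM per kb and therefore could not be placed against either *Snrpn* or *Ube3a*. *Ube3a* lay between 5.40 and 6.62, *Mkrn3* between 2.79 and 4.03, *Atp10a* between 1.89 and 2.86 and *Snhg14* between 0.309 and 0.841 CPM per kb, and *Mkrn3* and *Atp10a* overlapped at their edges. *Magel2* stayed at or under 0.0192 CPM per kb.

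Of the other genes in the interval at 1 CPM or more, 4 were processed pseudogenes, *Gm6226*, *Gm7367*, *Gm10297* and *Ube2nl*, with means of 2.60, 9.79, 20.0 and 2.98 CPM. Their reads may belong to parent genes elsewhere. The noncoding RNAs *A330076H08Rik* and *A230057D06Rik*, between *Snrpn* and *Ndn*, averaged 8.95 and 3.87 CPM, and *9330162G02Rik*, which lies over *Ube3a*, averaged 1.75 CPM. The gap between *Snrpn* and *Ndn* held few other transcribed genes. In the library labelled control 3, where *Ndn* was at 0.118 CPM, *A330076H08Rik* was at 10.2 and *A230057D06Rik* at 3.16 CPM, both within their range in the other libraries.

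**Figure D5:**
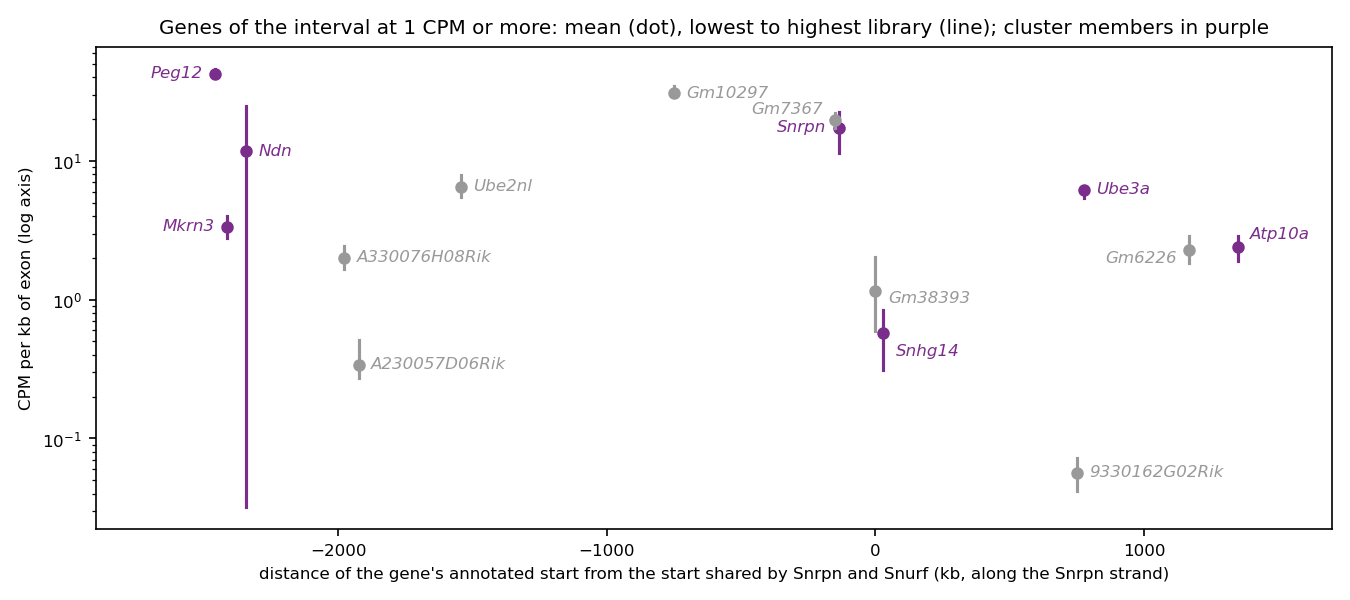
CPM per kilobase of exon (log axis; dot, mean of the 6 libraries; line, lowest to highest library) of the genes of the interval averaging 1 CPM or more, against the distance in kb of their annotated start from the start shared by *Snrpn* and *Snurf*, positive in the direction of *Snrpn* transcription. The cluster members are purple; *Ndn* has by far the longest line, from 0.0320 to 24.9 CPM per kb, between genes with short lines.

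The members did not share a profile over the 6 libraries. *Snrpn* and *Snhg14* lay 0.25 apart on the centred log2 scale, and *Snrpn* lay 0.31 from *Atp10a*, 0.36 from *Mkrn3*, 0.39 from *Ube3a* and 0.40 from *Peg12*, beside the 0.37 by which it departed from its own mean. *Ndn* lay 1.99 to 2.33 from each other member. The gene nearest to *Snrpn* lay outside the cluster. It was *Ggct*, an enzyme of glutathione breakdown, at a distance of 0.07, with 10.1, 10.9 and 7.30 CPM in the cre libraries and 5.56, 6.12 and 10.9 CPM in the control libraries. The library labelled control 1 was the lowest for both genes.

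None of the 11 tested genes beside the cluster was called in either comparison, with 7 above and 4 below 0 in each. *Gabra5*, a GABA-A receptor subunit gene, was scarce, at 0.622, 0.887 and 0.280 CPM in cre and 0.0942, 0.0594 and 0.384 CPM in control libraries, with adjusted p of 0.976 and 0.0947 in edgeR. *Herc2* and *Cyfip1*, the most abundant genes of this list, had 118 to 167 and 234 to 245 CPM in cre and 106 to 158 and 231 to 253 CPM in control libraries.

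The genes that work with the members' proteins were read from fixed lists, beside the 0% of all genes called by the labels and the 0.459% called in the 4 libraries, so that a list of this size without calls is no result about its genes. None of the 11 MAGEL2 ubiquitin ligase and WASH-retromer genes was called in either comparison, and their log2 fold changes by the labels lay between -0.13 and 0.12, with a median of -0.02. Their most abundant genes, the retromer subunit *Vps35* and the deubiquitinase *Usp7*, had 322 to 327 and 186 to 193 CPM in cre and 319 to 343 and 185 to 196 CPM in control libraries. These partners were thus present in cells with almost no *Magel2* RNA.

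Of the 11 necdin binding partners none was called, with log2 fold changes between -0.08 and 0.57 by the labels and between -0.14 and 1.28 in the 4 libraries, the highest being that of the scarce *Ngfr*, a neurotrophin receptor (0.188 to 0.904 CPM over the 6 libraries). *Hnrnpu*, the most abundant, a nuclear matrix protein, had 1189, 1080 and 1151 CPM in cre and 1015, 1041 and 1479 CPM in control libraries, and *Bmi1*, a Polycomb protein of self-renewing stem cells, had 185, 162 and 182 CPM in cre and 156, 158 and 194 CPM in control libraries. Both, and *Trp53*, the gene of p53, were highest in the library labelled control 3, in which *Ndn* was near 0. *Nucb1* and *Sirt1*, of the same list, were lowest there, at 96.05 and 22.5 CPM, and the rest of the list lay between. A link of these levels to *Ndn* was not tested. The 6 other MAGE genes, the family of *Ndn* and *Magel2*, held no call either. *Maged1* alone had 1199, 1188 and 1211 CPM in cre and 1308, 1220 and 1235 CPM in control libraries, and *Mageh1* 110 to 120 CPM in cre and 103 to 121 CPM in control libraries.

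Among the 10 tested UBE3A partners and substrates none was called. *Rad23b*, a shuttle of ubiquitinated proteins to the proteasome, had 330 to 341 CPM in cre and 317 to 338 CPM in control libraries, and *Ube2d2a*, a ubiquitin-conjugating enzyme, 223 to 235 CPM in cre and 217 to 232 CPM in control libraries. *Arc*, an immediate early gene of synapses, had 26.5, 22.6 and 7.37 CPM in cre 1, 2 and 3 and 14.5, 11.3 and 13.1 CPM in control 1, 2 and 3, and had the smallest adjusted p of the list in the 4 libraries, 0.0787 in edgeR and 0.00014 in DESeq2; it was named after its values had been seen.

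The 17 factors that maintain imprints or silence the *Snrpn* domain held no call in either comparison, apart from *Tet3* itself in the 4 libraries, which were chosen for its level. By the labels *Tet3* had a log2 fold change of -0.38 (SE 0.346, adjusted p = 1 in edgeR). *Trim28*, the corepressor through which imprints are protected, had 445 to 501 CPM in cre and 468 to 497 CPM in control libraries, and the maintenance methyltransferase *Dnmt1* 340 to 371 CPM in cre and 363 to 381 CPM in control libraries. Their median log2 fold change was 0.002 by the labels and -0.02 in the 4 libraries.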

How the data were processed

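Stranded mRNA libraries were sequenced on an Illumina NextSeq. The authors aligned the reads to GRCm38.p5 with Subread and deposited whole-number counts per gene of Ensembl release 87, made with Rsubread, without normalization. The strand, overlap and multi-mapping settings are not given in the sources used here. All 6 columns were mapped to libraries by name; 345 of 49671 genes had no symbol.

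The counts were fitted over the whole table with edgeR 4.0.16 (R 4.3.3) by the quasi-likelihood test, with TMM normalization, filterByExpr and Benjamini-Hochberg adjustment over all genes tested, at a threshold of 0.05. The fit was run by the labels and without the libraries labelled control 3 and cre 3; no library changed group. Alternatives were DESeq2 1.42.0, limma-voom (limma 3.58.1), other scaling and filters, a replicate block and leaving out each library. Exon lengths and coordinates came from GENCODE M21 (GRCm38), a later release than the authors', and promoters from RefSeq (GRCm38.p6).

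Named genes were the 9 members, *Tet3* and *Gfap*, up to 4 called or else the 2 most abundant genes of each list, the 3 nearest in profile to *Snrpn* and *Ndn*, and interval genes averaging 1 CPM; some of these are not reported here. *Magel2* met the rule for nearest genes but had at most 3 counts per library, so none are given. *Snrpb*, *Xist*, *Uty*, *Ddx3y*, *Col3a1*, *Acta2*, *Gabra5*, *Arc*, *Aldoc*, *Aldh1l1*, *Ngfr*, *Trp53*, *Nucb1* and *Sirt1* are named beyond the rule, for their values. Members and lists were chosen with earlier results of these data known. Intervals and floors cover counting error only.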

Additional observations from a re-analysis of the deposited data

How the results depend on the processing

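By the labels no member was called under any alternative; 0 genes were called by edgeR, 70 with DESeq2 and 3 with no filter, and they lay between 0 and 18 when each library was left out, 18 without the library labelled control 3. In the 4 libraries 78 genes were called by edgeR, 478 with DESeq2, 1325 with no filter and 169 with the replicate block, and between 59 and 297 when each library was left out, 297 without cre 2 and 246 without control 2. Members called there were 1 in edgeR, 2 with DESeq2 (*Snrpn* and *Snhg14*) and 3 with no filter (with *Ndn*, adjusted p = 2.65e-06 for *Snhg14* and 1.06e-23 for *Ndn*), and between 0 and 3 when each library was left out: 3 without cre 2 (*Snhg14* 1.09, adjusted p = 0.0397; *Ndn* 1.30, adjusted p = 0.0361) and 0 without control 1. With no filter the log2 fold change of *Ndn* was 1.05, beside 1.06 in the main fit of the 4 libraries. Its small adjusted p in that edgeR setting, in which 1325 genes were called, is therefore no added support. Leaving out a library of a group of 2 assumes that the lone library varies like the others. The cause of these shifts was not tested.

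Signs turned for *Atp10a* by the labels without cre 3 (0.10) and without control 3 (0.09), for *Peg12* without control 3 (-0.011), and in the 4 libraries for *Peg12* without cre 2 (-0.015) and without control 2 (-0.080) and for *Ube3a* without cre 2 (0.081). Over all libraries left out in turn, these values ranged by the labels from -0.18 to 0.10 for *Atp10a* and from -0.011 to 0.097 for *Peg12*, and in the 4 libraries from -0.080 to 0.11 for *Peg12* and from -0.20 to 0.081 for *Ube3a*. By the labels *Ndn* had 3.37 with limma-voom and 2.13 with the replicate block, against 1.31, at adjusted p of 1 in both. Other scalings left all 36 member levels within 1 SD of the replicates.

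Libraries with the same number did not deviate together. The correlations across genes were -0.083, 0.065 and -0.015 for the 3 pairs and -0.029 between the differences of the 4 libraries. No pairing by number was seen, although such correlations cannot show whether libraries were prepared together. The replicate block called 0 members by the labels and 1 in the 4 libraries. With 3 or 2 libraries a group, wide spreads such as that of *Ndn* limit what can be called.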
